A study of Mus musculus with 20 samples.

Results

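The genes described are the nuclear genes that encode subunits of the 5 oxidative phosphorylation complexes of mitochondria. They were chosen by symbol alone, as the genes named Nduf for complex I, Sdh for complex II, Uqcr and Cyc1 for complex III, Cox for complex IV and Atp5 for complex V, without assembly factors. Of 18194 genes measured by a probe set that carries a single symbol, 81 met this rule, of which 34 belonged to complex I, 4 to complex II, 9 to complex III, 17 to complex IV and 17 to complex V. Ndufs6, Ndufa11 and Cox7b met the rule by name but were not analysed here. Ndufa4 was counted with complex I, as its name has it, although the protein is also described as a subunit of complex IV.

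Signals came from whole salivary glands, with the lymph nodes removed, of C57BL/6J mice aged 4, 8, 12 and 16 weeks. The labels give 5 mice of each age, which makes 20 arrays, call every mouse a male, and name no treatment or engineered allele. C57BL/6 mice served the study as the strain without autoimmune disease, and the glands of its disease-prone strain were not analysed here. The label of the sex went against the signals. Xist, which is transcribed from the inactive X chromosome of females, lay between 8.96 and 10.72 on the log2 scale on all 20 arrays, whereas the Y-linked genes Eif2s3y and Kdm5d lay between 2.07 and 2.97 and between 3.65 and 4.75. All values below are log2 signals after the robust multi-array average (RMA), so that a log2 difference of -1 means a signal halved on the array's scale. Gland markers fitted the tissue, with the mean log2 signal of 8 acinar genes between 8.12 and 11.3 over the 20 arrays.

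Complexes I to IV form the electron transport chain of the inner mitochondrial membrane. Complex I takes electrons from NADH and complex II from succinate, complex III passes them to cytochrome c, and complex IV hands them to oxygen, while complexes I, III and IV pump protons. Complex V, the ATP synthase, makes ATP from the proton gradient. In salivary glands this ATP drives the ion pumps behind fluid secretion, and the striated ducts are named for their rows of mitochondria. Several subunits of complex IV have isoforms, encoded by separate genes, of which some are known from heart, skeletal muscle or brown fat and others from testis.

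Promoters were read to show what the genes share in sequence. The RefSeq table (GRCm38.p6) held a promoter, 250 bases before to 50 bases after the annotated start, for 66 of the 81 genes. In these, 4 short motifs of factors known for nuclear respiratory genes were searched on both strands. GCGCATGC, the core of the site of NRF1, stood in 13.6% of the 66 promoters, against 2.8% of all 27025 promoters in the table. CCGGAAG, which GABPA and other ETS factors bind, stood in 24.2%, against 9.12% of all promoters. AAGATGGC, bound by YY1, stood in 12.1%, against 2.88%, and TCAAGGTCA, bound by ESRRA, in 3.03%, against 0.407%. At least 1 of these 4 motifs was found in 29 of the 66, a count for which no share over all promoters is given here. Such a match is only a match of letters and was set against no binding data. For comparison, TATAAA stood in 12.1% of the 66, against 14.2% of all promoters, and CCAAT in 42.4%, against 37.9%.

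The promoters of 4 genes are shown, 5′ to 3′ on the strand of the gene, with every match to the 6 motifs in capitals. Ndufs4 and Atp5b are shown since they differed among the ages. Cox6a1 and Cox8b are shown as 1 widely expressed subunit of complex IV beside 1 muscle and brown fat isoform, whose signals differed in pattern. Ndufs4 (chr13:114388045-114388344, minus strand) carries the YY1 motif from base 36 of the transcript as annotated. Atp5b (chr10:128083057-128083356, plus strand) carries CCAAT 5 times, in 1 instance as ATTGG on the other strand, and none of the other motifs. Cox6a1 (chr5:115348909-115349208, minus strand) carries the NRF1 core on both strands in 10 overlapping bases, an ETS motif on the opposite strand and CCAAT. Cox8b (chr7:140900397-140900696, minus strand) carries only TATAAA, which begins at base 5 of the annotated transcript.
Ndufs4: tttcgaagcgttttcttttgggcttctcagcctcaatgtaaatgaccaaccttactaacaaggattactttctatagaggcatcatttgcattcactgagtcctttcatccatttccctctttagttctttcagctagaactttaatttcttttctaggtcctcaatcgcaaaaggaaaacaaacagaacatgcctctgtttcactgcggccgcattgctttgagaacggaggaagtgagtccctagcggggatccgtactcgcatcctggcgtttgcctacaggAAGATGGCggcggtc
Atp5b: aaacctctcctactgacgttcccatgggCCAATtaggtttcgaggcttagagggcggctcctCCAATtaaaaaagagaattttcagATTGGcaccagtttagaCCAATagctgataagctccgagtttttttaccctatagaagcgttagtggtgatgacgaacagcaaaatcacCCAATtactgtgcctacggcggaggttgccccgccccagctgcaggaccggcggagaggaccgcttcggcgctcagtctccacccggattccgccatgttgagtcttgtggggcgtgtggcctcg
Cox6a1: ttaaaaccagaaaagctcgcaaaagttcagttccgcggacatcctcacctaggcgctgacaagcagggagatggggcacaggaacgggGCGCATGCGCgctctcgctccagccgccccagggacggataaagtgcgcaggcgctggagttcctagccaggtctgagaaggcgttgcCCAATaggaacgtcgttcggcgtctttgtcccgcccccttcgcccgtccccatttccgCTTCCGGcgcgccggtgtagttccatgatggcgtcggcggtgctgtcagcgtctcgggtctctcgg
Cox8b: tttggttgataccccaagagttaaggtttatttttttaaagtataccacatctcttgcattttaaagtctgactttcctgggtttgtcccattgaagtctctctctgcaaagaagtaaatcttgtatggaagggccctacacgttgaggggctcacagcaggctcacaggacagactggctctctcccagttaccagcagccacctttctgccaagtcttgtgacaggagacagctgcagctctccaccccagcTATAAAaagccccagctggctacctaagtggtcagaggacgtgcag

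Over all 81 genes, the mean log2 signal per mouse averaged 8.54 ± 0.56 at week 4, 7.85 ± 0.66 at week 8, 8.46 ± 0.30 at week 12 and 7.69 ± 0.70 at week 16 (SD, n = 5 mice each). The mice of an age lay far apart. At 4 weeks mice 1 to 5 had 8.08, 7.98, 8.47, 8.85 and 9.33, at 8 weeks 8.63, 8.04, 7.30, 8.23 and 7.04, at 12 weeks 8.64, 8.09, 8.87, 8.37 and 8.35, and at 16 weeks 8.70, 7.29, 8.08, 6.97 and 7.40. The lowest signals thus came from 8-week mice 3 and 5 and 16-week mice 2, 4 and 5, and the highest from 4-week mouse 5, and every age overlapped with every other. In a whole gland, fewer cells rich in mitochondria and less RNA per cell cannot be told apart.

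The complexes differed little in which mice were high. The proton-driven synthase, complex V, averaged 9.47 ± 0.69 at week 4, 8.55 ± 0.87 at week 8, 9.29 ± 0.35 at week 12 and 8.29 ± 0.90 at week 16. The means of complex I were 8.46 ± 0.58, 7.75 ± 0.67, 8.44 ± 0.29 and 7.61 ± 0.73 at the 4 ages in the same order, and those of complex III 8.80 ± 0.64, 8.01 ± 0.71, 8.63 ± 0.34 and 7.84 ± 0.66. Complex II, succinate dehydrogenase, had 8.24 ± 0.41, 7.80 ± 0.46, 8.08 ± 0.24 and 7.72 ± 0.50, and complex IV had 7.72 ± 0.37, 7.27 ± 0.46, 7.68 ± 0.31 and 7.15 ± 0.49. In each of the 5 complexes 4-week mouse 5 was the highest mouse of its age and 16-week mouse 1 the highest of its own.

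**Figure D1:**
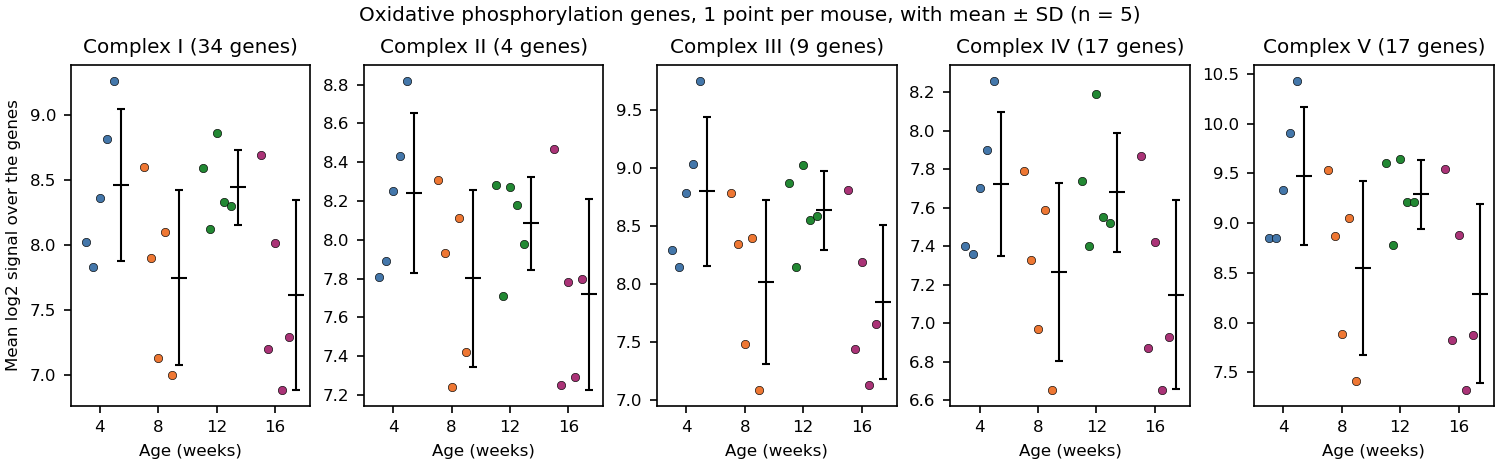
Mean log2 signal over the genes of each complex (y axis) against age in weeks (x axis), with 1 point per mouse in the order of the labels and the mean ± SD of 5 mice as a bar beside the points. In each complex 4-week mouse 5 and 16-week mouse 1 are the highest of their ages, and complex V has means of 9.47, 8.55, 9.29 and 8.29 at the 4 ages in order.

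Single mice were the highest or lowest of their age in most members. At 4 weeks mouse 5 had the highest signal in 67 of 81 genes, and at 16 weeks mouse 1 in 69 and mouse 4 the lowest in 59. The same mice led other bright genes. Among the other 1757 genes in the top decile by mean signal, 4-week mouse 5 was highest in 60.6% and 16-week mouse 1 in 73.8%, against 33.2% and 34.6% of all genes. Of the 81 members, 63 lay in that top decile and 8 below the median of all genes.

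The spread of signal on each array, taken as the SD over all 18194 genes, moved with the members. It averaged 1.68 ± 0.15 at week 4, 1.50 ± 0.09 at week 8, 1.64 ± 0.03 at week 12 and 1.51 ± 0.14 at week 16. The 5 arrays with the lowest mean over the members were the same 5 arrays that had the narrowest spread, and of the 5 arrays with the highest mean, 3 were among the 5 widest. Two-sided exact permutation tests of the spread over all labelings of 5 and 5 mice gave p = 0.0476 for 8 against 4 weeks, 0.00794 for 12 against 8 weeks and 0.0714 for 16 against 12 weeks, which became 0.214, 0.0715 and 0.214 after Benjamini-Hochberg adjustment over 9 tests of array measures. The other 6 of these tests, on the 3′ minus 5′ signal of the Gapdh and Actb control probe sets, gave exact p from 0.222 to 0.897. They compared the means of ages and do not address single mice, which lay far apart. For Actb the value ran from 0.98 in 8-week mouse 1 to 4.21 in 16-week mouse 1. For Gapdh it ran from 1.49 in 8-week mouse 5 to 3.94 in 8-week mouse 1. The part of this variation between mice in the differences below was not tested. The members themselves enter the spread, and its part in the differences below was not tested.

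**Figure D2:**
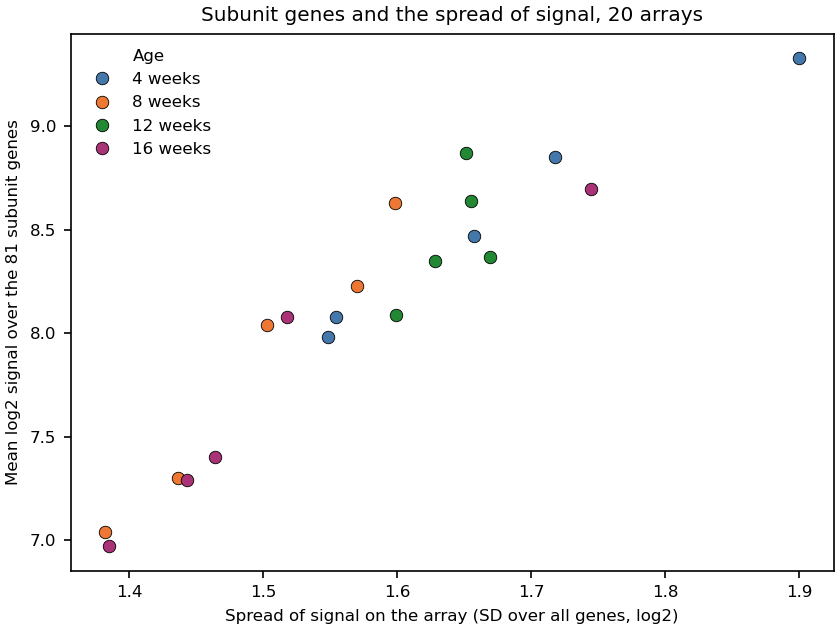
Mean log2 signal over the 81 subunit genes (y axis) against the SD of the log2 signals of all 18194 genes on the same array (x axis), with 1 point per array and a colour per age. The arrays of 12 weeks lie close together between 1.60 and 1.67 on the x axis, while those of 8 and 16 weeks reach down to 1.38 and 1.39.

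Between 8 and 4 weeks of age, 5 subunit genes of 3 complexes were lower at 8 weeks and none was higher (limma, adjusted p under 0.05 over 18194 genes). These were Ndufs4 and Ndufa10 of complex I, Uqcrfs1 of complex III, and Atp5b and Atp5o of complex V. The 5 genes make 6.17% of the members, and 7.39% of all genes were called in this comparison, with 4.13% lower and 3.26% higher at 8 weeks, so the share called was near that of all genes. The direction was less evenly spread than over all genes: 74 of 81 members had a difference below 0, against 45.2% of all genes, and the median log2 difference was -0.79, against 0.05 over all genes and -0.48 over the other genes of the top decile. At an unadjusted p under 0.05, 28 members were lower and 1 was higher at 8 weeks, or 34.6% and 1.23%, against 15.5% and 16.9% of all genes. Of the other 1757 genes of the top decile, 1330 had a difference below 0, and 665 were lower and 141 higher at that unadjusted p. At an adjusted p under 0.05, 178 of these 1757 were lower and 29 higher at 8 weeks. At both thresholds the share that was lower was larger among these bright genes than among the members, a difference that was not tested.

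Atp5b encodes the beta subunit of the ATP synthase, which carries the catalytic sites. Its log2 signals in mice 1 to 5 were 8.70, 9.24, 10.01, 10.31 and 11.21 at 4 weeks, 8.72, 8.13, 8.11, 9.12 and 6.77 at 8 weeks, 10.05, 9.10, 10.39, 9.52 and 10.17 at 12 weeks, and 9.65, 8.05, 8.89, 7.74 and 8.06 at 16 weeks. Every mouse of 12 weeks was at or above 9.10, and the 8-week and 4-week mice overlapped. Atp5b averaged 8.17 ± 0.89 at 8 weeks and 9.89 ± 0.97 at 4 weeks, a log2 difference of -1.73 ± 0.46 (SE, adjusted p = 0.035), the lowest of any member.

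Ndufs4 encodes an accessory subunit of complex I that is needed to complete its NADH-oxidizing arm. Its signals were 6.80, 6.54, 7.04, 7.55 and 7.87 at 4 weeks, 5.57, 6.56, 4.99, 6.40 and 5.28 at 8 weeks, 6.43, 6.23, 7.19, 6.69 and 6.80 at 12 weeks, and 6.78, 5.48, 5.94, 5.40 and 5.77 at 16 weeks. At 8 weeks 4 of the 5 mice lay below the lowest 4-week mouse, and mouse 2, at 6.56, lay just above it. The means were 5.76 ± 0.69 at 8 weeks and 7.16 ± 0.55 at 4 weeks, with a log2 difference of -1.40 ± 0.32 (adjusted p = 0.0257).

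Uqcrfs1 encodes the Rieske iron-sulfur protein of complex III, and Atp5o the subunit that joins the catalytic head of the ATP synthase to its peripheral stalk. Uqcrfs1 had 6.95, 7.14, 8.33, 8.18 and 9.27 at 4 weeks, 6.93, 6.57, 6.54, 7.27 and 5.22 at 8 weeks, 7.40, 7.45, 8.08, 7.19 and 7.51 at 12 weeks, and 7.56, 6.33, 6.87, 6.48 and 6.34 at 16 weeks. Atp5o had 8.45, 8.15, 8.51, 9.10 and 9.90 at 4 weeks, 8.18, 7.44, 7.29, 8.32 and 6.37 at 8 weeks, 8.59, 7.74, 8.54, 8.22 and 8.51 at 12 weeks, and 8.62, 6.98, 7.95, 6.72 and 7.21 at 16 weeks. Both genes were lowest in 8-week mouse 5 and highest in 4-week mouse 5, and their 8-week and 4-week mice overlapped at the edges. Their log2 differences between 8 and 4 weeks were -1.47 ± 0.39 (adjusted p = 0.0352) and -1.30 ± 0.39 (adjusted p = 0.0456).

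Ndufa10, an accessory subunit in the membrane arm of complex I, had signals of 7.65, 7.44, 8.33, 7.96 and 8.75 at 4 weeks, 6.67, 7.00, 6.93, 7.65 and 6.18 at 8 weeks, 7.64, 8.06, 7.36, 7.66 and 8.09 at 12 weeks, and 8.76, 7.06, 7.34, 6.79 and 7.31 at 16 weeks. Mouse 4 was the only 8-week mouse within the range of the 4-week mice. The difference was -1.14 ± 0.32 (adjusted p = 0.0401). None of the 81 members separated the 8-week mice from the 4-week mice without overlap, while 1.96% of all genes did so with lower and 3.79% with higher signals at 8 weeks.

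**Figure D3:**
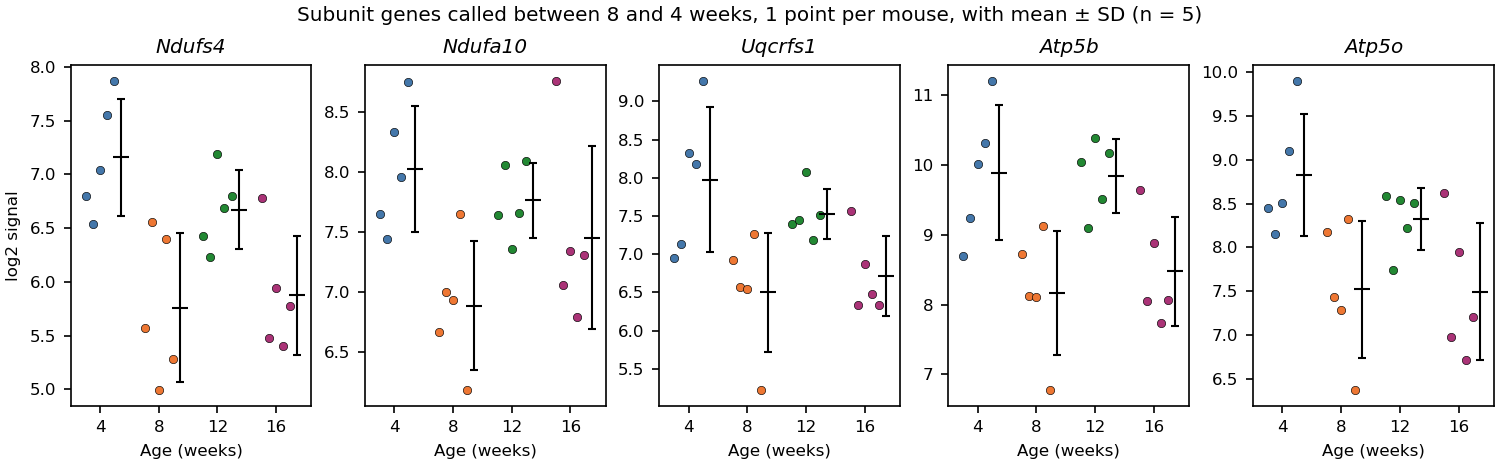
Log2 signal (y axis) against age in weeks (x axis) of the 5 subunit genes with an adjusted p under 0.05 between 8 and 4 weeks, with 1 point per mouse and the mean ± SD of 5 mice as a bar. In all 5 genes the 8-week mice reach below the 4-week mice and overlap with them, and 16-week mouse 1 is the highest of its age.

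The number of members called rested on single mice. Leaving out 4-week mouse 4 or 5, or 8-week mouse 3 or 5, left 0 of the 81 members called by limma between 8 and 4 weeks, with 0.0769% to 0.121% of all genes called. The count was 1 without 8-week mouse 2, 2 without 4-week mouse 3 and 3 without 12-week mouse 1. It was 8 and 10 without 4-week mice 1 and 2, where 9.73% and 9.82% of all genes were called, 17 and 12 without 8-week mice 1 and 4, with 11.3% and 14.8% of all genes, and 13 without 16-week mouse 1, with 13.6%. Without 8-week mice 3 and 5 together, an alternative chosen after the data were seen, 0 members and 0.0165% of all genes were called, and the median difference over the members was -0.21. The count was also 0 once the spread of each array's signals was a covariate, where the median turned to 0.15.

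By complex, the median log2 difference between 8 and 4 weeks was -0.77 in complex I, -0.45 in complex II, -0.82 in complex III, -0.50 in complex IV and -0.90 in complex V, and no difference between complexes was tested. In complex I 33 of 34 genes had a value below 0, with a single one above 0, Ndufb4, at 0.38, measured by a probe set below the median signal. All 4 genes of complex II were below 0, and they ran from -0.82 in Sdha, the flavoprotein that oxidizes succinate, to -0.03 in Sdhd, a membrane anchor. Sdhd and Sdhc, at -0.21, were read by probe sets with the suffix x, which can hybridize to several sequences, and their other probe sets, which were dimmer, had -1.07 and -1.29, so the median of complex II rested on the choice of probe set. All 9 genes of complex III lay between -1.47 and -0.22, the value of the small subunit gene Uqcr10. All 17 genes of complex V lay between -1.73 and -0.13, the value of Atp5k, whose product helps the synthase form dimers. Complex IV was the divided one, with 11 genes below 0 and 6 above, between -1.23 in Cox4i1 and 0.20 in Cox7b2.

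**Figure D4:**
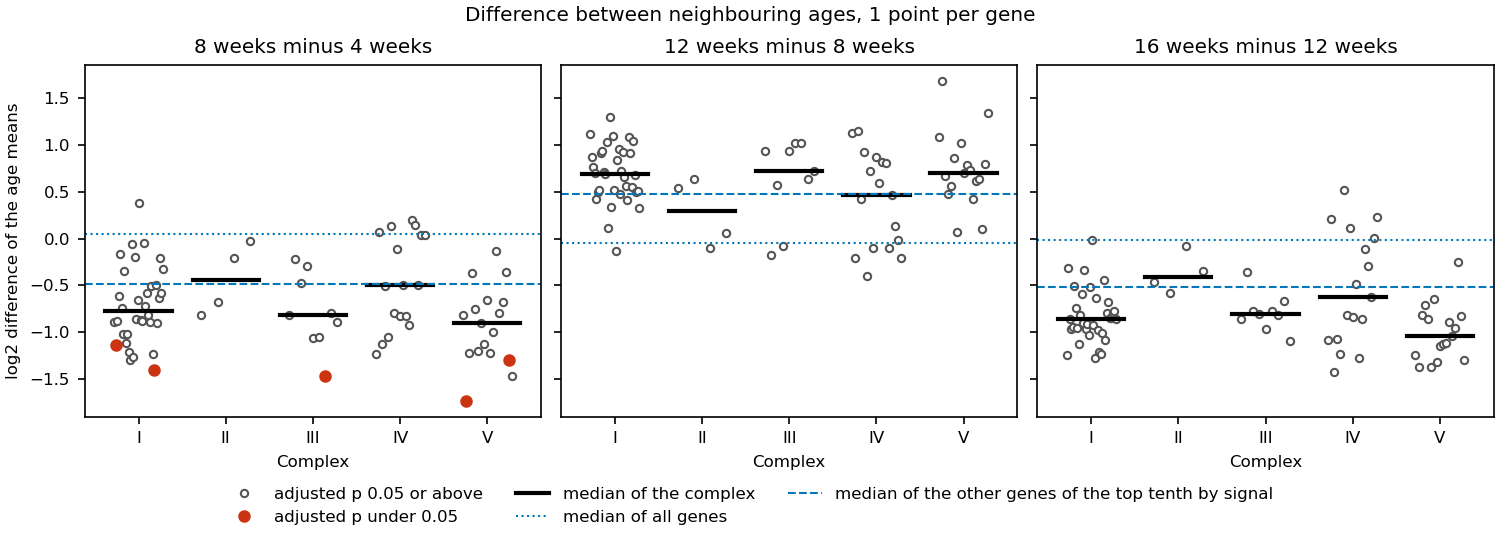
Log2 difference of the age means (y axis) by complex (x axis) for the 3 pairs of neighbouring ages, with 1 point per gene, filled red where the adjusted p was under 0.05, a black line at the median of the complex, and blue lines at the median of all genes (dotted) and of the other genes in the top decile by signal (dashed). The medians of the complexes lie between -0.90 and -0.45 for 8 minus 4 weeks, between 0.30 and 0.72 for 12 minus 8 weeks, and between -1.04 and -0.40 for 16 minus 12 weeks.

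Between 12 and 8 weeks, limma called none of the 81 members, and 0.0055% of all genes, which is a single gene, were called. At an unadjusted p under 0.05, 22 members were higher at 12 weeks and 0 were lower, or 27.2% and 0%, against 11.1% and 7.74% of all genes. The median was 0.67, against -0.05 over all genes and 0.48 over the other genes of the top decile, and 10 of 81 members had a value below 0, against 55.9% of all genes. Of the other 1757 genes of the top decile, 366 had a value below 0, and 573 were higher and 18 lower at that unadjusted p. The share that was higher was thus larger among these genes than among the members, which was not tested. With the spread as a covariate the median over the members turned to -0.08. The arrays of 8 weeks enter both this comparison and the one before it, so the opposite directions are not separate observations. Complex III had a median of 0.72, complexes I and V of 0.70 each, complex IV of 0.47 and complex II of 0.30. Atp5b had the highest value of all members, 1.68 (adjusted p = 0.129), with 9.84 ± 0.53 at 12 weeks and 8.17 ± 0.89 at 8 weeks. The other ends were 1.30 in Ndufb10, an accessory subunit of the membrane arm of complex I, 1.15 in Cox5a, a nuclear subunit of complex IV, 1.02 in Uqcrc2, a core protein of complex III, and 0.64 in Sdhb, the iron-sulfur subunit of succinate dehydrogenase. The lowest of each complex were Ndufb4 at -0.13, Sdhc at -0.10, Uqcr10 at -0.17, Cox6a2 at -0.40 and Atp5g2, a gene for the rotor subunit c of the synthase, at 0.07.

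Between 16 and 12 weeks, none of the 81 members was called by limma, with 0.192% of all genes called. At an unadjusted p under 0.05, 39 members were lower at 16 weeks and 1 was higher, or 48.1% and 1.23%, against 9.99% and 4.18% of all genes. The median was -0.85, against -0.02 over all genes and -0.52 over the other genes of the top decile, and 76 members had a value below 0, against 53.2% of all genes. Of the other 1757 genes of the top decile, 1479 had a value below 0, and 672 were lower and 36 higher at that unadjusted p. Outside mitochondria, 46 cytosolic ribosomal protein genes had a lower median than the members, -0.99, with 29 lower and 0 higher at that p. For 14 glycolysis genes it was -0.58, with 3 lower and 0 higher. Complex V had a median of -1.04, complex I of -0.86, complex III of -0.80, complex IV of -0.62 and complex II of -0.40. The lowest of each complex were Cox5a at -1.42, Atp5g1, another gene for subunit c, at -1.37, the accessory complex I gene Ndufb6 at -1.27, Uqcrq, a small subunit of complex III, at -1.09 and Sdhb at -0.58. The highest of each complex were Cox6a2 at 0.52, Ndufb4 at -0.02, Sdhc at -0.08, the small complex V subunit gene Atp5mpl at -0.25 and Uqcr10 at -0.36. Ndufs1, the core subunit of complex I that carries several iron-sulfur clusters, was the only member with 16-week mice wholly below the 12-week mice, between 6.66 and 6.87 at 16 weeks and between 6.88 and 7.38 at 12 weeks (log2 difference -0.44, adjusted p = 0.236), which 1.86% of all genes showed. Cox4i2, an isoform of complex IV, was the only one wholly above, between 4.66 and 4.82 at 16 weeks and between 4.27 and 4.65 at 12 weeks (log2 difference 0.21, adjusted p = 0.427), which 0.791% of all genes showed. The number of members called depended on 16-week mouse 1, without which 19 members and 5.69% of all genes were called and the median over the members was -1.14.

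Over the longer spans, Ndufs4 was the only member called between 16 and 4 weeks, where 3.63% of all genes were called and 3.12% were lower at 16 weeks, with 5.87 ± 0.55 at 16 weeks and 7.16 ± 0.55 at 4 weeks and a log2 difference of -1.29 ± 0.32 (adjusted p = 0.0329). The median over the members was -0.88, against 0.01 over all genes and -0.52 over the other genes of the top decile, and complex V had the lowest median, -1.33. Below 0 were 75 of 81 members, against 49.1% of all genes. Sdhc, a membrane anchor of complex II, lay between 7.24 and 7.84 at 16 weeks and between 7.85 and 8.08 at 4 weeks (log2 difference -0.40, adjusted p = 0.0886). With Ndufs1, which had -0.55 (adjusted p = 0.0524), it was 1 of 2 members whose 16-week mice lay wholly below the 4-week mice, or 2.47%, against 1.65% of all genes. At an unadjusted p under 0.05, 47 members were lower and 0 higher at 16 weeks, or 58% and 0%, against 15.2% and 9.01% of all genes. Of the other 1757 genes of the top decile, 1337 had a difference below 0, and 759 were lower and 114 higher at that unadjusted p. Cytosolic ribosomal protein genes again had a lower median than the members, -1.08, with 33 of 46 lower and 0 higher at that p. Glycolysis genes had -0.69, with 5 of 14 lower and 0 higher. Without 16-week mouse 1, 52 of the 81 members and 16.5% of all genes were called in this comparison. The count was 8 and 10 without 4-week mice 1 and 2, with 5.63% and 6.62% of all genes called, 4, 2 and 8 without 8-week mice 1, 3 and 5, with 4.01%, 3.81% and 4.47%, and 0 without any other 4-week or 16-week mouse.

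Between 12 and 4 weeks the median over the members was -0.10 and between 16 and 8 weeks -0.15, with 0 members called by limma in each, against 0.0934% and 0% of all genes. At an unadjusted p under 0.05, 1 member was lower and 1 higher at 12 weeks than at 4 weeks, against 4.01% and 5.02% of all genes, and 1 was lower and 0 higher at 16 weeks than at 8 weeks, against 4.39% and 1.42%. Over all 4 ages, the moderated F test called Ndufs4 (adjusted p = 0.0392) and Atp5b (adjusted p = 0.0489), which is 2.47% of the members, against 2.6% of all genes. Leaving out 16-week mouse 1 gave 35 such members, with 2611 of the 18194 genes called. Leaving out 4-week mouse 1 or 2, or 8-week mouse 4, gave 4 or 5, with 3.69% to 5.95% of all genes, while leaving out any other mouse gave 0 to 2.

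Complex IV is the complex in which tissue isoforms stand beside the common subunits. Its members were divided largely along that line, which mostly also parted bright from dim probe sets. The 10 common subunits Cox4i1, Cox5a, Cox5b, Cox6a1, Cox6b1, Cox6c, Cox7a2, Cox7a2l, Cox7c and Cox8a had a median log2 difference of -0.83 between 8 and 4 weeks, with 9 of 10 below 0. The 7 others, Cox4i2, Cox6a2, Cox6b2, Cox7a1, Cox7b2, Cox8b and Cox8c, had a median of 0.04, with 2 of 7 below 0. This grouping was made with the values known and was not tested, and 5 of the 7 genes had probe sets below the median of all genes in signal, all but Cox6a2 and Cox8c. The 8 members of any complex below that median signal had a median difference of 0.05, and all genes below it 0.14. Cox7c, the common subunit above 0, at 0.15, was 1 of these 8 members. The part of signal level in the division was not tested.

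Cox4i1, the common isoform of subunit 4, had 9.27, 9.40, 10.06, 10.61 and 11.01 in mice 1 to 5 at 4 weeks, 9.89, 8.83, 8.49, 9.62 and 7.39 at 8 weeks, 10.06, 9.64, 10.57, 9.85 and 9.76 at 12 weeks, and 10.23, 8.52, 9.56, 7.89 and 8.28 at 16 weeks. Cox4i2, the isoform known from lung, had medians of 4.63, 4.64, 4.54 and 4.67 at 4, 8, 12 and 16 weeks and a range of 4.27 to 5.02 over all mice. Cox4i1 thus followed the high and low mice of the other members, and Cox4i2 stayed within less than 1 log2 unit.

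The other pairs of isoforms were measured in the same mice. Cox6a1 lay between 10.77 and 12.00 at 4 weeks, 9.28 and 11.99 at 8 weeks, 10.74 and 11.77 at 12 weeks and 8.93 and 11.63 at 16 weeks. Cox6a2, its heart and skeletal muscle isoform, lay between 5.79 and 6.93, 6.31 and 6.60, 5.85 and 6.54, and 6.28 and 7.13 at the 4 ages in the same order, and was lowest in the 4-week mouse 5 that led nearly all other members. Cox6b1 averaged 9.67 ± 0.92 at 8 weeks and 10.47 ± 0.51 at 4 weeks, while its testis isoform Cox6b2 averaged 3.67 ± 0.38 at 8 weeks and 3.78 ± 0.22 at 4 weeks. Cox8a averaged 8.35 ± 0.74 at 8 weeks and 8.84 ± 0.71 at 4 weeks, and its testis isoform Cox8c, also read by a probe set with the suffix x, 7.68 ± 0.33 at 8 weeks and 7.64 ± 0.36 at 4 weeks. Cox7a2, the common counterpart of Cox7a1, averaged 10.29 ± 1.05 at 8 weeks and 11.12 ± 0.62 at 4 weeks, and Cox7a2l, counted here by its name, 7.78 ± 0.84 at 8 weeks and 8.70 ± 0.88 at 4 weeks. None of these isoforms was called, and several of the common ones differed by less than the SD of their mice.

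Cox7a1 and Cox8b, isoforms known from heart, skeletal muscle and brown fat, were high in a few single mice. Cox8b had 5.26, 4.50, 6.15, 4.34 and 6.77 in mice 1 to 5 at 4 weeks, 4.53, 6.57, 5.17, 5.73 and 5.21 at 8 weeks, 4.69, 5.22, 8.32, 4.62 and 4.30 at 12 weeks, and 5.80, 6.03, 5.62, 5.40 and 4.38 at 16 weeks. Cox7a1 had 4.87, 4.69, 5.81, 5.56 and 6.84 at 4 weeks, 5.70, 5.05, 4.75, 5.42 and 4.36 at 8 weeks, 5.30, 5.00, 7.59, 5.20 and 5.17 at 12 weeks, and 5.90, 5.04, 5.28, 5.01 and 4.60 at 16 weeks. Both were highest in 12-week mouse 3, then in 4-week mouse 5, and none of the 6 comparisons of their ages passed the test (adjusted p from 0.426 to 1).

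Of the 4 brown fat genes measured, Cidea and Ucp1 were high in some of the same mice. Cidea, a lipid droplet protein of brown fat, had 8.26 in 12-week mouse 3, 7.52 in 4-week mouse 5 and 6.45 in 4-week mouse 3, and lay between 3.55 and 5.66 in the other 17 mice. Ucp1, the uncoupling protein of brown fat, had 6.46, 7.38 and 7.50 in these 3 mice, and Adipoq, a hormone of fat cells, 6.64, 6.89 and 6.49. Fabp4, another fat cell gene, had 9.45, 8.94 and 7.99 in them. Ucp1 also reached 6.77 in 16-week mouse 2 and was not highest in 12-week mouse 3, so the genes did not rank the mice alike. Dio2, a thyroid hormone deiodinase, was at 5.78 in 12-week mouse 3, at 5.73 in 4-week mouse 3 and at 5.31, its lowest value, in 4-week mouse 5. Elovl3, a fatty acid elongase, shared the peaks in part. At 4 weeks it was highest in mice 5 and 3, at 5.48 and 5.43. Over all mice it was highest in 12-week mouse 4, at 5.96, with 12-week mouse 3 at 5.80. Skeletal muscle markers did not share the peaks of Cidea: the mean of their 14 genes lay between 4.50 and 5.06 on all 20 arrays, and Acta1 between 3.03 and 4.27. The part of brown fat in the Cox7a1 and Cox8b signals was not tested.

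**Figure D5:**
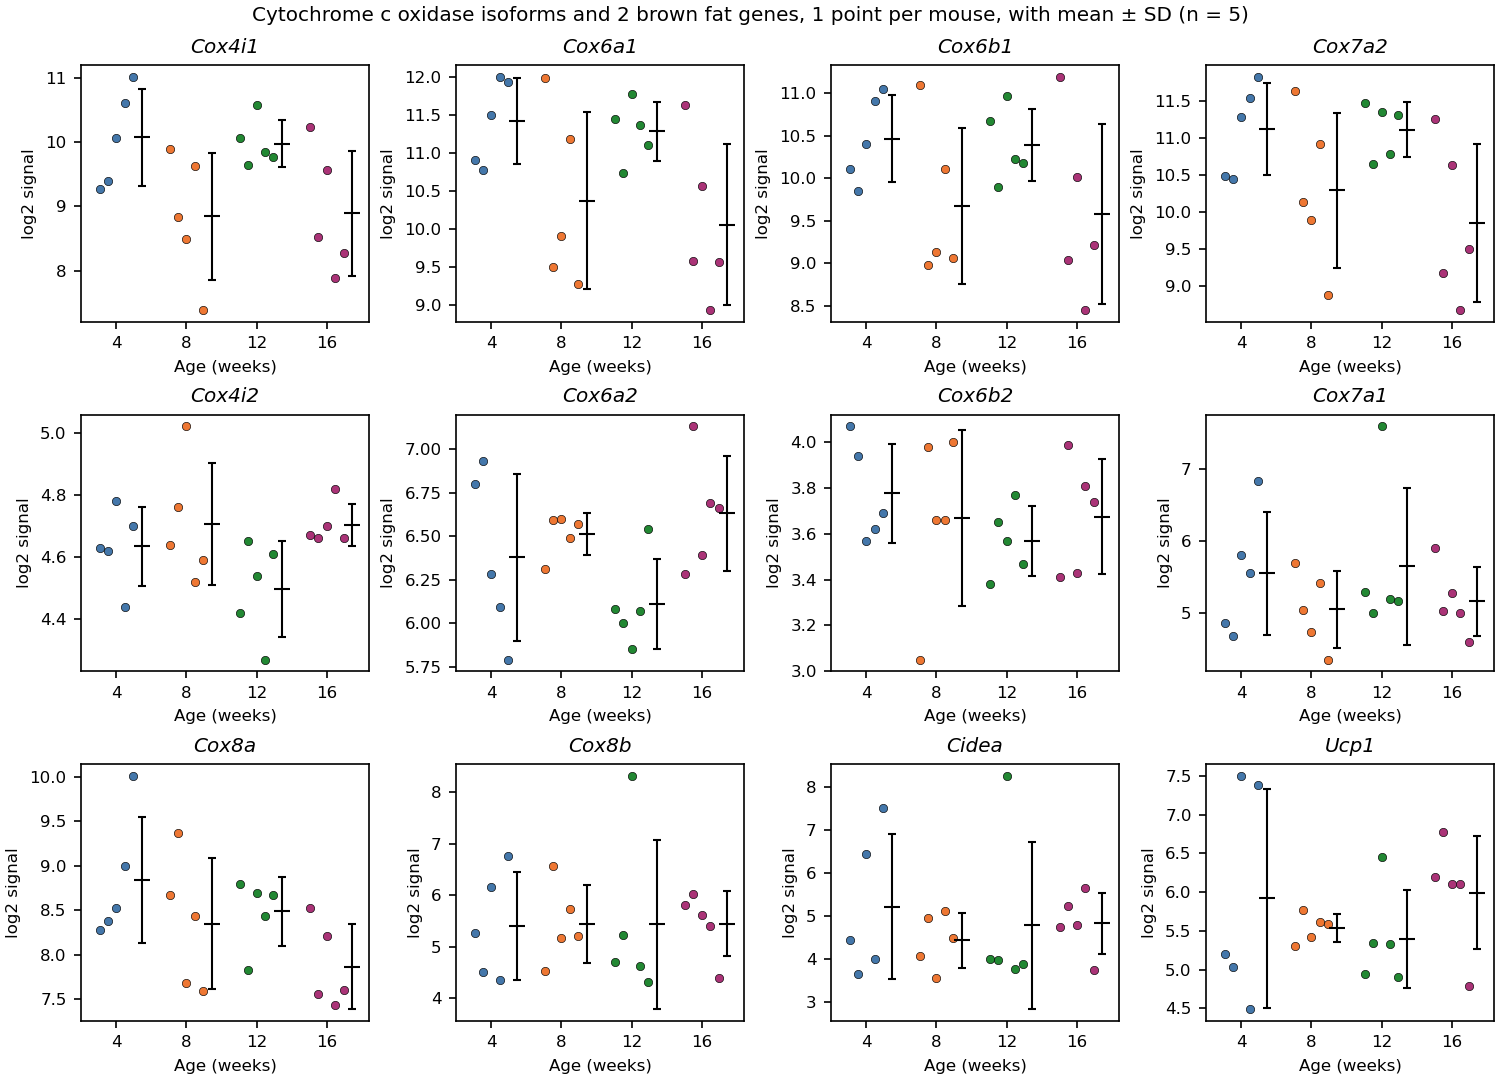
Log2 signal (y axis, scaled to each gene) against age in weeks (x axis) of 10 complex IV genes and the brown fat genes Cidea and Ucp1, with 1 point per mouse and the mean ± SD of 5 mice as a bar. Cox7a1, Cox8b and Cidea share a single high mouse at 12 weeks, at 7.59, 8.32 and 8.26, which the common isoforms do not show to that extent.

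Other genes of mitochondria were described by lists made with earlier results of these data known. Electron carriers and the exchangers and channels of the mitochondrial membranes had a median log2 difference of -1.01 between 8 and 4 weeks, and 4 of 13 were lower and 0 higher at 8 weeks. Over all genes the median was 0.05 with 4.13% lower and 3.26% higher, and over the other genes of the top decile it was -0.48 with 178 of 1757 lower. The 4 genes were Etfa at -1.76 ± 0.35 (adjusted p = 0.0185) and Etfdh at -1.21 ± 0.31 (adjusted p = 0.0309), which pass electrons from fatty acid oxidation to the chain, and the outer membrane channels Vdac2 at -1.63 and Vdac3 at -1.51. Cycs, cytochrome c itself, was lower at 16 weeks than at 4 weeks, with 8.71 ± 0.63 at 16 weeks and 10.23 ± 0.59 at 4 weeks and a difference of -1.52 ± 0.32 (adjusted p = 0.0166). Of 15 genes of the citric acid cycle and pyruvate dehydrogenase, 4 were lower and 0 higher at 8 weeks, with a median of -1.11: Pdha1 at -1.65, Dld at -1.64, Idh3a at -1.47 and Pdhb at -1.24. For both lists the share called was above that of the subunit genes, a difference that was not tested. Like those of the subunits, the calls between 8 and 4 weeks rested on 8-week mice 3 and 5, without which 3 of the 18194 genes were called.

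The counts of the following lists stand beside the same 4.13% lower and 3.26% higher over all genes, and their medians beside 0.05 over all genes and -0.48 over the other genes of the top decile. Mitochondrial fatty acid oxidation had a median of -0.61 with 2 of 13 genes lower, the carnitine transferase Cpt1a at -1.03 and the dehydrogenase Acadl at -1.50. Protein import had a median of -0.74 with 4 of 21 lower, among them Tomm20, a receptor of the outer membrane, at -1.51, and the chaperonin Hspd1 at -1.08, beside the import chaperones Timm8a1 and Timm9. Of 44 assembly factors, 2 were lower, the complex V assembly factor Tmem70 (adjusted p = 0.0216) and Lrpprc at -1.13, and 1 was higher, Lyrm7 at 0.64, with a median of -0.31. Mitochondrial ribosomal proteins had a median of -0.52 with 7 of 76 lower, led by Mrpl42 at -1.49. The antioxidant genes had 1 of 7 lower, Glrx2 at -1.03. Lists outside mitochondria also had medians below 0, with -0.58 and 0 of 14 called by limma in glycolysis (4 lower and 0 higher at an unadjusted p under 0.05), and -0.68 and 1 of 46 lower in cytosolic ribosomal proteins. ND5, a complex I subunit encoded by mitochondrial DNA and the only gene of that genome measured, had differences of -0.41 between 8 and 4 weeks (adjusted p = 0.33), 0.65 between 12 and 8 weeks (adjusted p = 0.253) and -0.68 between 16 and 12 weeks (adjusted p = 0.317).

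Of 12 regulators of mitochondrial gene expression, 1 was higher at 8 than at 4 weeks and 0 were lower, where 7.39% of all genes were called, so the share was near that of all genes. The median was -0.27. The gene was Nrf1, whose product binds the motif named above, at 5.96 ± 0.41 at 8 weeks and 5.32 ± 0.32 at 4 weeks, a difference of 0.64 ± 0.19 (adjusted p = 0.0448). Ppargc1b, a coactivator of mitochondrial biogenesis, was higher at 16 than at 4 weeks, with 7.53 ± 0.54 at 16 weeks and 6.52 ± 0.16 at 4 weeks and a difference of 1.01 ± 0.22 (adjusted p = 0.0209). Its relative Ppargc1a had a difference of -0.41 ± 0.23 between 8 and 4 weeks (adjusted p = 0.206) and -0.45 ± 0.23 between 16 and 4 weeks (adjusted p = 0.231). Gabpa and Yy1, whose motifs were also searched, had -0.70 (adjusted p = 0.0587) and -0.74 (adjusted p = 0.0577) between 8 and 4 weeks.

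Markers of the gland's cell types were read at the same ages, with 4.13% of all genes lower and 3.26% higher at 8 weeks. The mean log2 signal of 8 acinar genes lay between 8.36 and 10.31 at 8 weeks and between 9.11 and 11.3 at 4 weeks, with 0 of 8 called by limma, 5 lower and 0 higher at an unadjusted p under 0.05, and a median difference of -0.88. Of 5 genes of the granular convoluted tubules, which enlarge at puberty, 4 (Klk1b1, Klk1b5, Klk1b16 and Klk1b21, close paralogs) were higher and 0 lower at 8 weeks, with a mean signal between 7.02 and 8.99 at 8 weeks and between 6.89 and 7.48 at 4 weeks. Of 6 fibroblast genes, 3 collagen and matrix genes were lower at 8 weeks, Col1a2, Lum and Col3a1, the last at -2.21 ± 0.34 (adjusted p = 0.00445). All 5 myoepithelial genes had values below 0, with the smooth muscle myosin Myh11 lower at -1.12. Higher at 8 weeks were 1 of 5 adipocyte genes, Retn at 0.61, 1 of 4 T cell genes, Cd3e at 0.41, and 1 of 4 brown fat genes, Dio2 at 0.44. Of the duct and ionocyte genes, 0 of 11 were called by limma (at an unadjusted p under 0.05, 1 was higher and 1 lower), with a median of 0.02. The part of these cell types in the subunit signals was not tested.

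Several probe sets measured 48 of the 81 genes, and they did not always share a sign. Taken on their own, 136 of the 164 member probe sets had a difference below 0 between 8 and 4 weeks, 140 one above 0 between 12 and 8 weeks, and 142 one below 0 between 16 and 12 weeks. All probe sets of a gene shared the sign in 33, 36 and 36 of the 48 genes in these comparisons. Ndufs4 had 4 probe sets, with differences of -1.40, -0.71, 0.05 and 0.06 between 8 and 4 weeks, and Ndufa10 had 2, with -1.14 and 0.16, of which the brightest stood for the gene. Atp5o had 2, with -1.30 and -0.98, while Atp5b and Uqcrfs1 had 1 each. Of the probe sets that stood for the 81 genes, 13 carried the suffix x and 12 the suffix s, which mark sets that can hybridize to more than a single sequence or transcript, and RefSeq lists 14 pseudogenes named after members, so such signals may be shared.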

How the data were processed

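The authors deposited log2 signals of 45101 probe sets after RMA. Which arrays were normalized together is not given in the sources used here. The study's methods name quantile normalization, yet the SD over the 18194 genes ran from 1.38 to 1.90 between arrays. The reason for this was not tested. RNA was labelled by the 3′ protocol of the array maker, and each array held 1 mouse, so the number of arrays limits the precision. Of the probe sets, 34958 carried 1 gene symbol in the platform annotation, 932 several and 9211 none listed, and 34754 were matched to RefSeq (GRCm38.p6). The probe set of highest mean over the 20 arrays stood for each of 18194 genes. The members and lists were chosen with earlier results of these data known. The genes named are the members called in any comparison, the lowest and highest member of each complex for neighbouring ages, the complex IV isoforms and, of the list genes that passed the test, those that stand as examples, with the others given by count. ND5, Ppargc1a, Gabpa, Yy1, Ndufs1, Sdhc, Cidea, Ucp1, Elovl3, Adipoq and Fabp4 were named after their values were seen. Age was fitted as a factor over all 20 arrays with limma 3.58.1 in R 4.3.3 (lmFit, eBayes), without a replicate block, with Benjamini-Hochberg adjustment of the p-values over the 18194 genes and calls at an adjusted p under 0.05. The fit was tested on simulated data with noise independent between genes, so that test does not cover shifts shared by many genes of an array. Replicate numbers are shared between ages in the labels but name different mice, and the p-values rest on 5 mice an age. Alternatives were median centring, quantile normalization, cyclic loess, averaged probe sets per gene, a filter at the 40th percentile of signal, a replicate block, arrays of 2 ages alone, a variance trend with robust fit, array weights, a covariate for each array's spread of signal, and leaving out each mouse.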

Additional observations from a re-analysis of the deposited data

Results flagged for a closer look

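In 4 of 168 sets of 5 mice, the highest mouse lay farther from the others than Dixon's critical value allows, and chance gives about 1 in 20 such sets. Cox8b was at 8.32 and Cox7a1 at 7.59 in 12-week mouse 3, with the next mice of that age at 5.22 and 5.30. Ndufa10 was at 8.76 in 16-week mouse 1, with the next at 7.34. Cox4i2 was at 4.82 in 16-week mouse 4, with the other 4 mice between 4.66 and 4.70.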

How the results depend on the processing

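The 5 members called between 8 and 4 weeks gave way to 1 with array weights, and to 0 with arrays of the 2 ages alone, with the replicate block, with the covariate for the spread of signal, and without 8-week mice 3 and 5. The other 6 alternatives gave 5 to 7, with 6.49% to 10.2% of the genes tested called. Of the 7 with averaged probe sets, only Atp5b and Uqcrfs1 were among the 5. Ndufs4, Ndufa10 and Atp5o thus lost their calls there, as did Ndufs4 between 16 and 4 weeks. Leaving out each mouse gave 0 to 17 members for 8 against 4 weeks, 0 in all cases for 12 against 8, 12 against 4 and 16 against 8 weeks, 0 to 19 for 16 against 12 weeks, 0 to 52 for 16 against 4 weeks, and 0 to 35 for the F test. The medians then ran from -1.02 to -0.53, 0.43 to 0.92, -0.20 to 0.12, -0.45 to 0.06, -1.14 to -0.63 and -1.26 to -0.66 for these 6 pairs of ages in the same order. Arrays of 2 ages alone called 1 member between 12 and 8 weeks, Atp5b, with 1.51% of the genes tested. Array weights called 20 between 16 and 12 weeks, with 6.4%. Between 16 and 4 weeks the count was 18 with array weights and 14 without 8-week mice 3 and 5, with 7.63% and 6.09% of the genes tested. It was 5 with the filter on low signal or median centring, with 7.25% and 4.57%, and 2 for averaged probe sets, with 3.12%. With arrays of 2 ages alone, the block or the covariate it was 0, with 0.412%, 1.44% and 0.813%. The F test called 11 members under array weights, with 8.17% of the genes tested. It called 0 for averaged probe sets, the block, the covariate, or without 8-week mice 3 and 5, with 0.473% to 1.82%.

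With the covariate the medians were 0.15 for 8 against 4 weeks, -0.08 for 12 against 8, 0.10 for 12 against 4, -0.15 for 16 against 12 and -0.10 for 16 against 4 weeks. With cyclic loess they were -0.29 for 8 against 4 (-0.79 as fitted), 0.20 for 12 against 8 (0.67), -0.26 for 16 against 12, -0.19 for 16 against 4 and 0.02 for 16 against 8 weeks, and with quantile normalization -0.37, 0.34, -0.46 and -0.36 for 8 against 4, 12 against 8, 16 against 12 and 16 against 4 weeks. Without 8-week mice 3 and 5 they were -0.21 for 8 against 4, 0.14 for 12 against 8 and -0.57 for 16 against 8 weeks. Of 38 named differences that limma did not call, 24 changed sign under at least 1 alternative, most often the covariate (18) or cyclic loess (11). Fits without each single mouse were not counted here. The cause was not tested. Over all genes, the 1345 calls between 8 and 4 weeks became 210 with array weights, 245 with the block, 16 with the covariate, 2 with arrays of the 2 ages alone and 3 without 8-week mice 3 and 5. They were 14 without 4-week mouse 5 and 2694 without 8-week mouse 4. Over all alternatives, leaving out mice included, the other comparisons ran from 0 to 274 (12 against 8 weeks, 1 as fitted), 9 to 1164 (16 against 12, 35), 6 to 110 (12 against 4, 17), 75 to 3003 (16 against 4, 660), 0 to 12 (16 against 8, 0) and 85 to 2611 (F test, 473), with 3003 and 2611 reached without 16-week mouse 1. Same-numbered mice of different ages correlated between -0.567 and 0.583 in their deviations from the age means (median 0.014). Differently numbered mice correlated between -0.668 and 0.672 (median -0.001), and 2 of 20 arrays were nearest to their own number. These correlations gave no sign that the numbers pair the mice. Whether same-numbered mice were handled on the same day is not given in the labels.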
